A study of Homo sapiens with 2 samples.

Results

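Genes of the nuclear pore complex and of nuclear transport were examined in the APL cell line NB4, a human promyelocytic leukemia line that carries the PML/RARα fusion. The members were chosen by their symbols, not by their values: nucleoporins named NUP with a number, importins and karyopherins, exportins other than XPO5, the transportins, and TPR, NDC1, POM121, RAE1, SEH1L, SEC13, AAAS, CSE1L, RAN, RANBP1 and RANBP2. This gave 53 of the 11619 genes listed in both libraries, of which 28 encode parts of the pore and 25 encode transport receptors or Ran proteins. One library came from NB4 cells infected with lentivirus for an shRNA against the long non-coding RNA CRNDE (sh-CRNDE), the other from NB4 cells infected with a non-targeting shRNA (sh-Control), both harvested on day 3. All cells thus carried PML/RARα and a lentiviral shRNA vector, and the labels do not say which CRNDE shRNA the sequenced cells carried.

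Since each group is 1 library, differences could not be set against replicates and p-values are left out. The unit is FPKM, a fragment count divided by transcript length and by the mapped fragments of the library, so that levels of different genes can be compared per length. The change of a gene is its log2(FPKM + 1) value with sh-CRNDE minus that with sh-Control, and rose or fell is used for a change past 1.5-fold on that scale, 0.585. The depth of the libraries is unknown. The targeted gene CRNDE was at 5.92 FPKM with sh-Control and 1.85 FPKM with sh-CRNDE, a change of -1.28. Of 7 promyelocyte markers fixed for the check of the cell line, 6 were listed, at 4.46 to 1135 FPKM with sh-Control and 3.74 to 738 FPKM with sh-CRNDE. MPO, PRTN3, AZU1, CTSG and MS4A3, genes of promyelocyte granules and of that stage, fell past 1.5-fold, and the summed level of the listed markers was 1423 FPKM with sh-Control and 824 FPKM with sh-CRNDE. Mitochondrial and small RNA genes held 0.460% of the summed FPKM with sh-Control and 16.9% with sh-CRNDE. The members' share of the rest was 1.06% and 1.05%. Among the mitochondrial genes, MT-RNR2 was listed at 0 with sh-Control and at 27614 FPKM with sh-CRNDE. The FPKM of all genes with sh-CRNDE summed to 170373, so this 1 gene held most of the 16.9%. Beyond the rescaling without mitochondrial and small RNA genes given below, the part of these shifts in the changes of the members was not tested. Of 15 T cell, B cell, erythroid and epithelial markers, 5 were listed, none above 4.82 FPKM, the level of EPCAM with sh-Control. In bulk RNA of this kind, fewer cells with a transcript and less transcript per cell cannot be told apart.

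The nuclear pore complex is a ring-shaped assembly that spans the nuclear envelope. Its outer and inner rings form the scaffold, nucleoporins rich in phenylalanine-glycine repeats fill the channel, filaments reach into the cytoplasm, and a basket reaches into the nucleus. Cargo crosses the channel on soluble receptors. Importins bind cargo in the cytoplasm and release it in the nucleus when they meet RAN in its GTP-bound form, whereas exportins bind cargo together with that form. In myeloid leukemia, NUP98 and NUP214 are known as partners in gene fusions, and XPO1 is the target of export inhibitors.

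The large majority of the 53 genes stayed within 1.5-fold. XPO4, XPO7 and TNPO3 rose, NUP210 and IPO7 fell, and the change of the remaining 48 genes was not past the threshold. The 5 genes past 1.5-fold are 9.43% of the members, whereas 17.2% of all listed genes were past it, and 17.1% of the 5097 genes averaging 5 FPKM or more. By direction, 5.66% of the members rose, beside 8.38% of all genes, and 3.77% fell, beside 8.83% of all genes. No member was past 2-fold, beside 6.66% of all genes. The median change of the members was 0.02 and that of all genes was -0.01. The middle of the members' changes, from the 25th to the 75th percentile, ran from -0.22 to 0.22, and for all genes averaging 5 FPKM or more it ran from -0.25 to 0.26. Of the members, 27 were higher and 26 lower with sh-CRNDE by any amount. Their summed level was 1492 FPKM with sh-Control and 1483 FPKM with sh-CRNDE.

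Of the receptor and Ran genes, 4 of 25 (16.0%) were past the threshold, a share near the 17.2% of all genes, and of the pore genes 1 of 28 (3.57%). Whether these shares differ was not tested. XPO4 was at 7.01 FPKM with sh-Control and 13.1 FPKM with sh-CRNDE, and NUP210 at 58.3 FPKM and 34.7 FPKM, the largest rise and the largest fall among the 53 genes. All 53 genes were above 0 in both libraries, and 51 averaged 5 FPKM or more. Across the members, levels on the log2(FPKM + 1) scale in the 2 libraries had a Pearson correlation of 0.967, and across all 11619 genes 0.920. Both describe genes of the same pair of libraries, which are not independent replicates.

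The promoters of 4 of the 5 genes past the threshold are shown so that these genes can be compared in sequence with the other members; that of XPO7 was not used here. They are the 150 bases before the RefSeq start site on GRCh38.p14, 5′ to 3′ on the strand of the gene. The motifs searched on both strands were the E-box CACGTG, the CCAAT box CCAAT, the ETS core CCGGAAG and the TATA box TATAAA. Capitals mark a match. The annotated gene spans of XPO4 and TNPO3, given below, reach upstream of these start sites. They cover the whole XPO4 window and part of the TNPO3 window. The stretches are NUP210 at chr3:13420323-13420472 (minus strand), IPO7 at chr11:9384502-9384651 (plus strand), TNPO3 at chr7:129055112-129055261 (minus strand) and XPO4 at chr13:20902747-20902896 (minus strand).
NUP210: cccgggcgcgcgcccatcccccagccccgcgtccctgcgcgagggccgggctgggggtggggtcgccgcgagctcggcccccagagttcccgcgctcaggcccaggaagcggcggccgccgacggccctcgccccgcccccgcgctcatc
IPO7: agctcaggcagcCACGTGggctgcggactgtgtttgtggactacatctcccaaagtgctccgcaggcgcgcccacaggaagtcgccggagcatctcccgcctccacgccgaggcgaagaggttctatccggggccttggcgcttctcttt
TNPO3: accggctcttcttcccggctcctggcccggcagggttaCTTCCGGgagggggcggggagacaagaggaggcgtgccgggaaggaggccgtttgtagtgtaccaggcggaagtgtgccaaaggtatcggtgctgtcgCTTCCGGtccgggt
XPO4: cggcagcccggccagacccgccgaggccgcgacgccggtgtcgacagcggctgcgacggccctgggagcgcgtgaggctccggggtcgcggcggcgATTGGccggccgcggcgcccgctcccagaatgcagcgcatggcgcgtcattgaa

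None of the motifs searched was found in more than 1 of these 4 windows. In the window shown, IPO7 held 1 E-box, TNPO3 held 2 ETS cores and XPO4 held 1 CCAAT box, read as ATTGG on the gene's strand, and none was found in that of NUP210. RefSeq promoters, from 250 bases before to 50 bases after the start, were matched for 47 of the 53 members. For each, the promoter nearest the start of the gene's canonical transcript in GENCODE was taken. For the listed genes and for all 27305 symbols, the first promoter of each symbol was taken, so the selection was not the same. An ETS core was found in 15 of the 47 (31.9%), beside 21.8% of the promoters of 7940 listed genes and 10.7% of all 27305 promoters, 1 for each symbol. A CCAAT box was found in 20 members (42.6%), beside 37.4% of listed genes and 35.7% of all promoters. A TATA box was found in 2 members (4.26%), beside 4.96% and 12.0%. The E-box was found in 7 members (14.9%), beside 10.9% of listed genes and 7.43% of all promoters. Those 7 genes were IPO4, IPO7, KPNA3, NUP188, NUP50, RAN and TNPO2, and 6 of them were lower with sh-CRNDE, with a median change of -0.28, beside -0.0043 for the members without one. Of the members with an ETS core 8 of 15 were lower, and of those with a CCAAT box 10 of 20. Median changes were -0.048 with an ETS core and -0.034 without, and -0.0050 with a CCAAT box and -0.12 without. Both members with a TATA box were lower, with a median change of -0.20, beside -0.036 for the members without one. Over the listed genes the median change was -0.01 both with and without an E-box. The motifs were chosen after the values were seen, and a match of letters is a description of the window only.

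**Figure D1:**
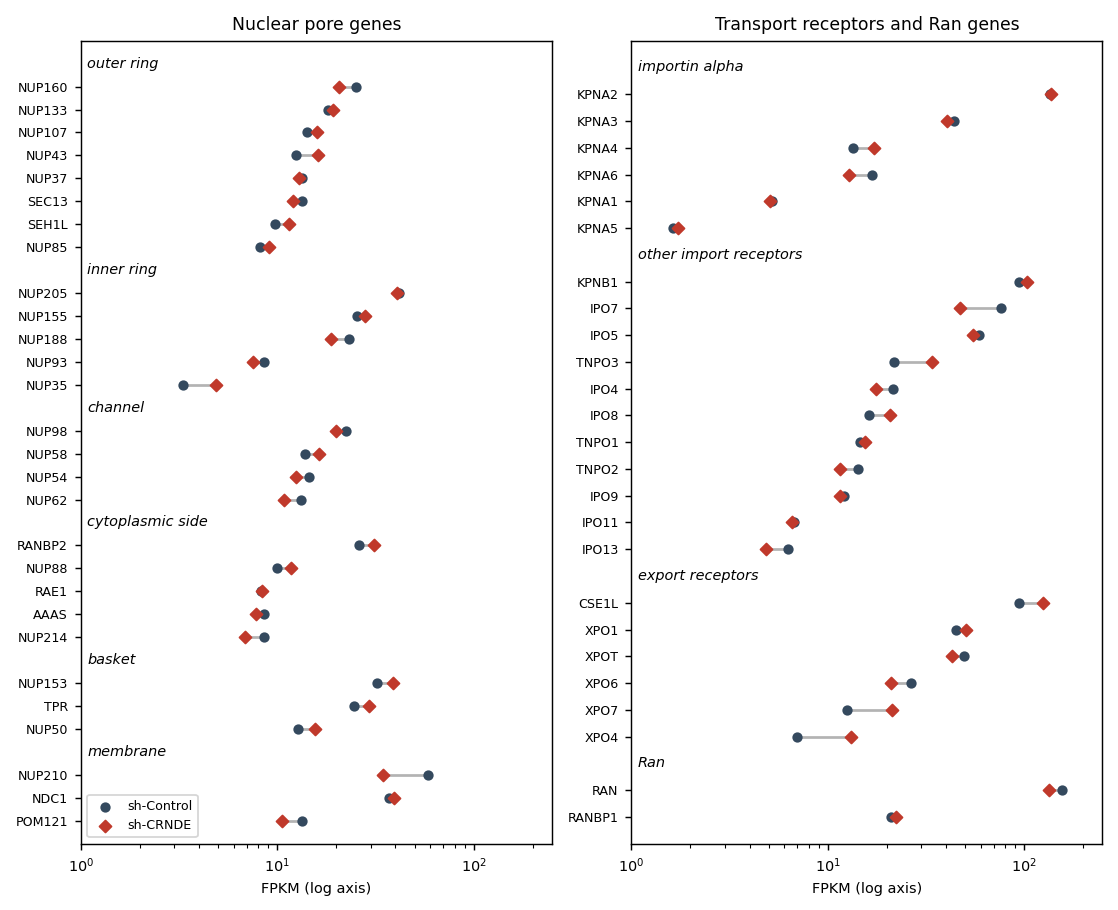
FPKM (log axis) of each of the 53 genes with sh-Control (dark circles) and sh-CRNDE (red diamonds), 1 library each, with pore genes on the left and receptor and Ran genes on the right, grouped by class and sorted by mean level. Levels run from 1.64 FPKM (KPNA5) to 155.8 FPKM (RAN) with sh-Control, and the longest bars are those of XPO4, XPO7, NUP210, IPO7 and TNPO3.

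The genes of the pore scaffold are given by ring. The outer ring, or Y complex, anchors the pore on both faces of the envelope. None of its 8 genes was past the threshold, beside 17.2% of all genes, and whether these shares differ was not tested. The median change of the ring was 0.11, and its summed level was 114.7 FPKM with sh-Control and 117.4 FPKM with sh-CRNDE. The most abundant of its transcripts, NUP160, was at 25.1 FPKM with sh-Control and 20.6 FPKM with sh-CRNDE, the lowest change of the ring at -0.27. NUP43 had the highest, 0.35, with 12.5 FPKM with sh-Control and 16.2 FPKM with sh-CRNDE. These are the ring's extremes, and the other 6 genes differed less between the libraries. NUP133 was at 18.2 FPKM with sh-Control and 19.1 FPKM with sh-CRNDE, and NUP107, which binds it at the stem of the Y, at 14.2 FPKM and 15.9 FPKM. NUP37 was at 13.4 FPKM with sh-Control and 12.9 FPKM with sh-CRNDE, and NUP85 at 8.17 FPKM and 9.12 FPKM. SEC13 also serves the COPII coat of secretory vesicles, and SEH1L also serves the GATOR2 complex of nutrient sensing. SEC13 was at 13.4 FPKM with sh-Control and 12.0 FPKM with sh-CRNDE, and SEH1L at 9.74 FPKM and 11.5 FPKM. A further value, called GC subtraction here, takes from each change the median change of all genes in the same of 20 bins of transcript GC content. With it, the median of the ring was -0.0054.

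The inner ring lines the channel and holds the repeat nucleoporins in place. NUP205 and NUP188, large paralogous scaffold proteins, were at 41.9 FPKM and 23.2 FPKM with sh-Control and at 40.9 FPKM and 18.9 FPKM with sh-CRNDE. NUP155, which contacts the membrane, was at 25.5 FPKM with sh-Control and 28.1 FPKM with sh-CRNDE. Their linker NUP93 was at 8.58 FPKM with sh-Control and 7.55 FPKM with sh-CRNDE. NUP35, a membrane-binding subunit, had the lowest transcript level of the pore genes, 3.30 FPKM with sh-Control and 4.85 FPKM with sh-CRNDE. Its change of 0.45 was the highest of all pore genes without being past the threshold, and its ratio of FPKM values was 1.47. None of the 5 genes rose or fell, beside 17.2% of all genes, and the median change was -0.03.

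In the channel, 3 of the 4 genes were lower with sh-CRNDE. None was past the threshold, beside 17.2% of all genes. NUP62, NUP54 and NUP58 form the central trimer of repeat nucleoporins. NUP62 was at 13.2 FPKM with sh-Control and 10.8 FPKM with sh-CRNDE, a change of -0.27, and NUP54 at 14.6 FPKM and 12.4 FPKM, a change of -0.22. NUP58 went the other way, with 13.9 FPKM with sh-Control and 16.3 FPKM with sh-CRNDE, a change of 0.22. The genes of this trimer lay within 13.2 to 14.6 FPKM of each other with sh-Control, and within 10.8 to 16.3 FPKM with sh-CRNDE. NUP98, whose transcript also encodes the outer ring protein NUP96, was at 22.4 FPKM with sh-Control and 19.9 FPKM with sh-CRNDE. Its change was -0.16.

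On the cytoplasmic side, RANBP2 and NUP214 form the filaments where export complexes come apart. RANBP2 was at 26.0 FPKM with sh-Control and 30.9 FPKM with sh-CRNDE, a change of 0.24, and NUP214 at 8.57 FPKM and 6.83 FPKM, a change of -0.29. NUP88, the partner that anchors NUP214, was at 10.01 FPKM with sh-Control and 11.7 FPKM with sh-CRNDE, so the pair moved apart by less than the threshold each. The mRNA export factor RAE1 was at 8.25 FPKM with sh-Control and 8.37 FPKM with sh-CRNDE. AAAS, which encodes ALADIN, was at 8.57 FPKM with sh-Control and 7.78 FPKM with sh-CRNDE. RGPD4, a partial copy of RANBP2 whose reads may be shared with it, was at 0.638 FPKM with sh-Control and 0.922 FPKM with sh-CRNDE, and the sum of both genes had a change of 0.25.

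The basket genes shared a direction and nearly a size of change. NUP153 binds the nuclear ring and recruits the others, TPR forms the filaments of the basket, and NUP50 assists the release of importin alpha. NUP153 was at 32.4 FPKM with sh-Control and 38.7 FPKM with sh-CRNDE, TPR at 24.6 FPKM and 29.2 FPKM, and NUP50 at 12.7 FPKM and 15.5 FPKM. All 3 were higher with sh-CRNDE, with changes of 0.24 to 0.27, none past the threshold. Their shares of the class's summed FPKM were nearly the same in both libraries, 46.4% for NUP153 in each, 35.3% and 35.02% for TPR, and 18.2% and 18.6% for NUP50. Changes of 0.25 or less in size were found in 60.4% of the members and 50.5% of all genes. After GC subtraction the basket changes were 0.09 for TPR, 0.17 for NUP153 and 0.16 for NUP50.

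Among the membrane nucleoporins, NUP210 stood apart. NUP210 (ENSG00000132182, chromosome 3, 13316235 to 13420322, minus strand, GRCh38, 40 exons) encodes the pore glycoprotein gp210, whose level is known to vary between tissues. Its transcript was the most abundant of the pore genes with sh-Control, at 58.3 FPKM, and was at 34.7 FPKM with sh-CRNDE. The change of -0.73, a level 1.68-fold lower, lay above that of 5.90% of all genes. NDC1, the membrane protein that helps to insert new pores, was at 37.3 FPKM with sh-Control and 39.3 FPKM with sh-CRNDE. The ratio of NUP210 to NDC1 was thus 1.56 with sh-Control and 0.884 with sh-CRNDE, so that the order of these genes turned over. POM121 was at 13.4 FPKM with sh-Control and 10.6 FPKM with sh-CRNDE, a change of -0.31. Its near-identical copy POM121C was at 15.8 FPKM with sh-Control and 12.4 FPKM with sh-CRNDE, a change of -0.33, and since reads can be shared between them, their sum, with a change of -0.33, is the safer value. Both NUP210 (58.4%) and POM121 (58.0%) have GC-rich transcripts. After GC subtraction NUP210 had a change of -0.55 and was no longer past 1.5-fold. The NDC1 transcript has a GC content of 38.8%, and its change of 0.07 was -0.09 after GC subtraction. The ratio of NUP210 to NDC1 was not adjusted for GC content.

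**Figure D2:**
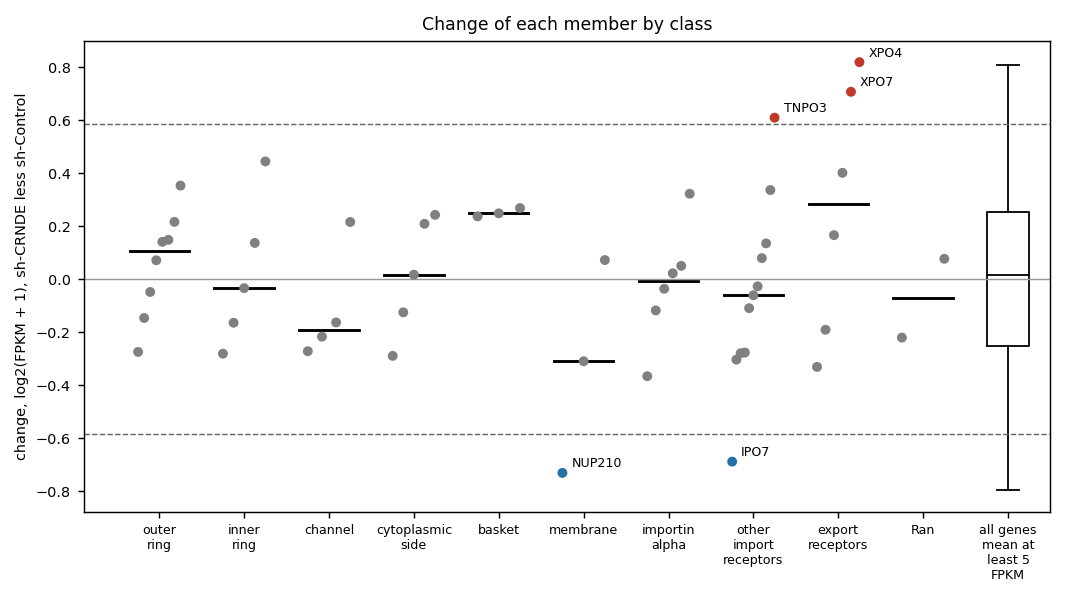
Change of each member on the log2(FPKM + 1) scale, sh-CRNDE less sh-Control, by class, with class medians as black lines, 1.5-fold as dashed lines, and genes past it in red (rose) or blue (fell). The box shows the median and the 25th and 75th percentiles of the 5097 genes averaging 5 FPKM or more, with whiskers to the 5th and 95th percentiles; XPO4, XPO7, TNPO3, NUP210 and IPO7 alone lie outside the dashed lines.

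The importin alpha adaptors read the classical nuclear localization signal, and KPNA2 led them by a similar share in both libraries. KPNA2 was at 135.3 FPKM with sh-Control and 137.5 FPKM with sh-CRNDE, a change of 0.02. It made up 62.5% of the summed FPKM of the class with sh-Control and 64.0% with sh-CRNDE. KPNA3 followed with 44.2 FPKM with sh-Control and 40.6 FPKM with sh-CRNDE. KPNA6 had the lowest change of the class, -0.37, with 16.7 FPKM with sh-Control and 12.8 FPKM with sh-CRNDE, and KPNA4, next to it in level, the highest, 0.32, with 13.5 FPKM and 17.2 FPKM. The share of KPNA6 in the class was 7.73% with sh-Control and 5.94% with sh-CRNDE, and that of KPNA4 was 6.24% and 7.99%. Their order of level therefore turned over between the libraries, without either being past the threshold. KPNA1 was at 5.22 FPKM with sh-Control and 5.07 FPKM with sh-CRNDE. KPNA5 was the lowest of all 53 genes, at 1.64 FPKM with sh-Control and 1.73 FPKM with sh-CRNDE. None of the 6 genes rose or fell, beside 17.2% of all genes.

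The adaptors are carried by KPNB1 and returned to the cytoplasm by the exportin CSE1L. KPNB1 was at 94.4 FPKM with sh-Control and 103.8 FPKM with sh-CRNDE, a change of 0.14. CSE1L was at 94.3 FPKM with sh-Control and 124.9 FPKM with sh-CRNDE, a change of 0.40. The ratio of CSE1L to KPNB1 was 0.999 with sh-Control and 1.204 with sh-CRNDE, and that of KPNA2 to CSE1L was 1.44 and 1.10. Such ratios within a library do not depend on how the libraries were scaled, but they too rest on 1 library per group.

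Of the importin beta family, whose members bind cargo directly or through adaptors, TNPO3 rose and IPO7 fell among 11 import receptors, a share of 18.2% that is near the 17.2% of all genes. IPO7 (ENSG00000205339, chromosome 11, 9384652 to 9448127, plus strand, 25 exons) carries ribosomal proteins and other cargo. It was at 76.3 FPKM with sh-Control and 47.0 FPKM with sh-CRNDE, a change of -0.69 and a level 1.62-fold lower. IPO8, its closest paralog and an importer of Argonaute proteins, was at 16.2 FPKM with sh-Control and 20.7 FPKM with sh-CRNDE, a change of 0.34. The ratio of IPO7 to IPO8 was 4.72 with sh-Control and 2.27 with sh-CRNDE. The share of IPO7 in the summed FPKM of the class was 22.3% with sh-Control and 14.4% with sh-CRNDE, while that of KPNB1 was 27.5% and 31.7%. The transcript of IPO7 is poor in GC (37.5%), and after GC subtraction its change was -0.86.

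TNPO3 (ENSG00000064419, chromosome 7, 128954180 to 129055173, minus strand, 23 exons), the importer of serine- and arginine-rich splicing factors, was at 21.8 FPKM with sh-Control and 33.8 FPKM with sh-CRNDE. Its change was 0.61, just past the threshold, and was 0.57 after GC subtraction and 0.58 after quantile normalization, neither past it. TNPO1 and TNPO2, paralogs that import hnRNP proteins, did not follow. TNPO1 was at 14.6 FPKM with sh-Control and 15.5 FPKM with sh-CRNDE, and TNPO2 at 14.2 FPKM and 11.5 FPKM. The ratio of TNPO3 to TNPO1 was 1.49 with sh-Control and 2.17 with sh-CRNDE.

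The other import receptors were within the threshold, and most were somewhat lower with sh-CRNDE. IPO5, which imports ribosomal proteins and histones, was at 59.0 FPKM with sh-Control and 54.7 FPKM with sh-CRNDE. The histone importer IPO4 was at 21.4 FPKM with sh-Control and 17.5 FPKM with sh-CRNDE, a change of -0.28. IPO9, which carries histones H2A and H2B, was at 12.1 FPKM with sh-Control and 11.6 FPKM with sh-CRNDE. The changes of IPO5 and IPO9 were -0.11 and -0.06. IPO11 was at 6.75 FPKM with sh-Control and 6.61 FPKM with sh-CRNDE. IPO13, which carries cargo both ways, was at 6.25 FPKM with sh-Control and 4.88 FPKM with sh-CRNDE. Over the class, 4 genes were higher and 7 lower by any amount, with a median change of -0.06, and the summed level was 343 FPKM with sh-Control and 328 FPKM with sh-CRNDE.

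**Figure D3:**
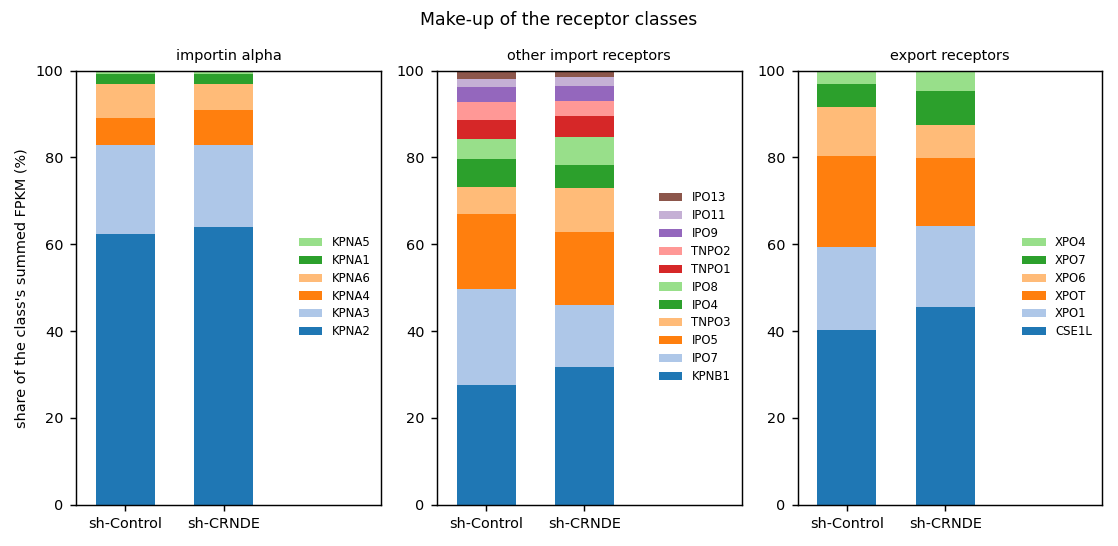
Share of each gene in the summed FPKM of its class (percent, stacked to 100), for the importin alpha genes, the other import receptors and the export receptors, with sh-Control and sh-CRNDE. KPNA2 holds 62.5% and 64.0% of its class, IPO7 gives way from 22.3% to 14.4%, and CSE1L, XPO7 and XPO4 take larger shares of the export receptors with sh-CRNDE.

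The export receptors had the highest median change among the classes of receptors, 0.28, and 2 of 6 rose (33.3%, beside 8.38% of all genes). That median was 0.13 after GC subtraction. XPO4 (ENSG00000132953, chromosome 13, 20777329 to 20903048, minus strand, 23 exons), an exporter of the translation factor EIF5A, was at 7.01 FPKM with sh-Control and 13.1 FPKM with sh-CRNDE. The change of 0.82 corresponds to a ratio of FPKM values of 1.87, and 95.2% of all genes had a lower change. XPO7 (ENSG00000130227, chromosome 8, 21919662 to 22006585, plus strand, 28 exons), a receptor with broad cargo, was at 12.6 FPKM with sh-Control and 21.2 FPKM with sh-CRNDE, a change of 0.71 and a ratio of 1.68. After GC subtraction the changes of XPO4 and XPO7 were 0.64 and 0.67, both still past 1.5-fold. In sh-Control these were the export receptors with the lowest transcript levels.

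XPO1, the main exporter of proteins with a leucine-rich signal, was at 45.1 FPKM with sh-Control and 50.8 FPKM with sh-CRNDE, a change of 0.17. The tRNA exporter XPOT was at 49.1 FPKM with sh-Control and 42.9 FPKM with sh-CRNDE, a change of -0.19, so that the order of XPO1 and XPOT turned over. XPO6, the exporter of actin, had the lowest change of the class, -0.33, with 26.6 FPKM with sh-Control and 20.9 FPKM with sh-CRNDE. The ratio of XPO4 to XPO1 was 0.155 with sh-Control and 0.259 with sh-CRNDE, and that of XPO7 to XPO1 was 0.279 and 0.418. The share of XPO4 and XPO7 in the summed FPKM of the class was 2.99% and 5.37% with sh-Control and 4.80% and 7.74% with sh-CRNDE. The class sum was 234.7 FPKM with sh-Control and 273.9 FPKM with sh-CRNDE, with CSE1L at 40.2% and 45.6% of it.

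RAN, the small GTPase that sets the direction of transport, had the highest transcript level of the members, 155.8 FPKM with sh-Control and 133.7 FPKM with sh-CRNDE, a change of -0.22. Its processed pseudogene RANP1 had a listed value of 0 with sh-Control and of 5.42 FPKM with sh-CRNDE, and the sum of both had a change of -0.16. How reads were shared between them is not given in the sources used here. RANBP1, which helps RAN to hydrolyse GTP after export, was at 21.0 FPKM with sh-Control and 22.3 FPKM with sh-CRNDE. Neither gene was past the threshold.

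Of 14 symbols of other transport factors set as partners of the RAN cycle, 12 were listed. Of these 3 rose and 1 fell, a share of 33.3% beside 17.2% of all genes. The symbols C11orf73 and HIKESHI name the same gene, which was listed as C11orf73. The regulators that load and unload RAN were near their control level. The exchange factor RCC1 was at 34.3 FPKM with sh-Control and 34.8 FPKM with sh-CRNDE, and the GTPase activator RANGAP1 at 20.01 FPKM and 22.2 FPKM. NUTF2, which brings RAN back into the nucleus, was at 18.0 FPKM with sh-Control and 17.7 FPKM with sh-CRNDE. SENP2, a protease found at the pore, rose from 5.16 FPKM to 9.14 FPKM, a change of 0.72. NEMF, best known for quality control of stalled ribosomes, rose from 6.47 FPKM to 11.95 FPKM, a change of 0.79. PHAX, the adaptor that links small nuclear RNA to XPO1, fell from 9.81 FPKM to 5.96 FPKM, a change of -0.64.

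Of 15 further symbols of pore proteins and proteins that bind the pore, 7 were listed. None was past 1.5-fold, beside 17.2% of all genes. The unlisted symbol NUPL1 is an older name of the member NUP58. AHCTF1, the ELYS protein that seeds pores on chromatin, was at 19.97 FPKM with sh-Control and 23.1 FPKM with sh-CRNDE. NUPL2, a filament protein now named NUP42, was at 7.37 FPKM with sh-Control and 6.23 FPKM with sh-CRNDE. CENPF, which binds the outer ring in mitosis, had the highest mean level, with 35.9 FPKM with sh-Control and 42.2 FPKM with sh-CRNDE.

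The members share features that the symbols did not use. Their canonical transcripts had a median of 22 exons and 5151 bases, beside 8 exons and 2886 bases for the 11508 annotated genes, and a median GC content of 43.5%, beside 48.3%. Across the 53 genes the change went down with GC content, with a Pearson correlation of -0.447 and a Spearman correlation of -0.433, and across the annotated genes these were -0.241 and -0.393. In the 18 members of highest GC content (47.5% to 59.3%), 4 were higher with sh-CRNDE and the median change was -0.27. All listed genes in that range of GC content had a median change of -0.085. In the 18 members of lowest GC content (34.3% to 40.2%), 11 were higher and the median change was 0.08, beside 0.17 for listed genes in the same range. In the 17 members between them (40.6% to 47.2%), 12 were higher and the median change was 0.14, beside 0.095 for listed genes. The members' median was thus highest in the middle range, not in the lowest. The part of GC content in the changes of the members was not tested beyond the subtraction given above. Exon number and transcript length went with the change weakly across the members, with Pearson correlations of -0.119 and 0.045.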

How the data were processed

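RNA of NB4 cells was sequenced by the authors from TruSeq libraries on an Illumina MiSeq, with 1 library per group. The submitters' processing notes name fastp 0.20.0, HISAT2 2.0.4, StringTie 1.2.3 and GRCh38; the annotation release is not given in the sources used here. The deposited gene tables of the authors hold FPKM and were used without counts, so depth and counting error are unknown. Every listed gene is above 0.5 FPKM in at least 1 library.

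From these values log2(FPKM + 1) was taken and differences were computed. The pseudocount of 1 understates changes of low genes. The threshold of 1.5-fold follows the study. Classes and partner lists, and the rule that every member is named and partners are named when past 1.5-fold or highest in level, were set with earlier results of these data known. Further partners and ratios were chosen after their values were seen. Position, exons, length and GC content come from GENCODE release 44, matched by Ensembl identifier for 11508 of 11619 genes and all 53 members. Promoters come from RefSeq (GRCh38.p14). KPNA7 and NUP210L were not analysed here. The values of 1 partner gene that the naming rule selects are not reported here, though the gene is included in the counts. Promoters of 6 members (KPNA4, KPNA5, KPNB1, NUP43, RANBP1 and XPO7) were not used here. The calling step was tested on simulated data. Alternatives were pseudocounts of 0.1 and 0.01, centring, quantile normalization, rescaling without mitochondrial and small RNA genes, minimum means of 1 and 5 FPKM, a 2-fold threshold, and subtraction of the median change of genes in 20 bins of GC content. Python 3.11.15, numpy 2.4.6, pandas 2.3.3 and matplotlib 3.10.9 were used.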

Additional observations from a re-analysis of the deposited data

How the results depend on the processing

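With pseudocounts of 0.1 and 0.01, centring, rescaling without mitochondrial and small RNA genes, and minimum means of 1 and 5 FPKM, 5 members were past 1.5-fold, 3 higher and 2 lower, as in the values reported. Quantile normalization left 4, since TNPO3 (0.58) was below the threshold, and turned the direction of 1 member, KPNA2 (0.02 to -0.14). Subtracting the median change found at each GC content left 3 members past it, with 1 lower, since TNPO3 (0.57) and NUP210 (-0.55) were no longer past it. With that subtraction 14.7% of the 11508 annotated genes were past 1.5-fold. It moved the median change of the members from 0.02 to -0.091, and their median GC content was 43.5%, beside 48.3% for the annotated genes. Why changes go with GC content in these libraries was not tested. Without the subtraction, the median change was -0.03 for the 51 members averaging 5 FPKM or more. GC subtraction also turned the direction of 7 members, none with a reported change above 0.15 in size. The medians of the outer ring (-0.01), membrane (-0.14), importin alpha (-0.17) and export receptor (0.13) classes moved with it. At 2-fold, 0 members were past the threshold in either direction, with 0 higher and 0 lower. Of the 60 listed partners, 7 were past 1.5-fold (11.7%, beside 17.2% of all genes). Under each rescaling, pseudocount and GC alternative 7 or 8 of them were past it. Over all genes, the count moved from 2000 (17.2%) to 3301 (28.4%) and 3481 (30.0%) with pseudocounts of 0.1 and 0.01. With the rescaling it was 3228 (27.8%). The rescaling also enlarged the values before the pseudocount of 1 was added, which acts like a smaller pseudocount. These parts of the rescaling were not separated. Depth is unknown, so no interval can be set on a level, and with 1 library per group a difference between conditions cannot be told apart from one between libraries.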

Other observations

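Of 22 mRNA export genes, all listed, 2 rose and 0 fell (9.09%, beside 17.2% of all genes), with a median change of 0.05. ENY2, a small subunit shared by the TREX-2 export complex and the SAGA coactivator, rose from 4.31 FPKM with sh-Control to 7.92 FPKM with sh-CRNDE, a change of 0.75. SARNP, an RNA-binding export factor, rose from 11.6 FPKM to 19.8 FPKM, a change of 0.72. The adaptor ALYREF, with the highest mean level of the list, was at 55.9 FPKM with sh-Control and 59.5 FPKM with sh-CRNDE. The main mRNA export receptor NXF1 was at 8.67 FPKM with sh-Control and 9.18 FPKM with sh-CRNDE, and its partner NXT1 at 19.0 FPKM and 13.7 FPKM.

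Of 21 genes of the lamina and the nuclear envelope, 19 were listed, 1 rose and 0 fell (5.26%, beside 17.2% of all genes), with a median change of 0.05. TOR1AIP1, an inner membrane protein that binds lamins, rose from 3.68 FPKM with sh-Control to 7.49 FPKM with sh-CRNDE, a change of 0.86. The B-type lamins went opposite ways without passing the threshold. LMNB1, the most abundant transcript of the list, was at 90.6 FPKM with sh-Control and 122.6 FPKM with sh-CRNDE, a change of 0.43, and LMNB2 was at 27.8 FPKM and 19.9 FPKM, a change of -0.46. LMNA, the A-type lamin, was at 13.3 FPKM with sh-Control and 11.2 FPKM with sh-CRNDE, and the lamin B receptor LBR at 27.9 FPKM and 29.4 FPKM. The GC content of the LMNB2 transcript is 61.1% and that of LMNB1 47.8%, and after GC subtraction the changes were -0.24 and 0.39.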
